A study of Mus musculus with 4 samples.

Results

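Microexons are exons so short that they add only a short run of amino acids to a protein. Here they are the internal exons of 3 to 51 nt that lie between 2 exon-exon junctions marked as known in the deposited junction tables of mouse thymocytes. An exon was kept when the most used known junction on its 2 sides together carried at least 20 reads over the 4 libraries. The members were thus chosen by exon length and by summed flanking reads, and neither is a finding. By this rule 3722 exons of 2538 genes were microexons, 4.22% of the 88196 internal exons that passed the same read minimum, and the other 84474 were longer.

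RNA of total thymocytes from 2 wild-type mice and 2 hnRNP L KO mice was sequenced after ribosomal RNA depletion, with 1 library per mouse. All 4 mice carry the same background label, a mix of CD45.1, C57BL/6, an LckCre transgene and the fluorescent reporter allele Gt(ROSA)26Sortm4(ACTB-tdTomato,-EGFP)Luo. The Lck promoter drives Cre in T lineage cells, so cells other than thymocytes in the thymus would keep the gene. The sources used here do not give which mice carried Cre, their age or their sex.

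The spliceosome has to recognise both ends of an exon, and in a very short exon these ends lie so close that factors bound there can hinder each other. Enhancer sequences in the neighbouring introns and the protein SRRM4 (also called nSR100) allow many microexons to be included in neurons, where they often keep the reading frame and add a few residues to a protein surface. hnRNP L is a nuclear RNA-binding protein that binds CA-rich RNA and promotes or represses inclusion of nearby exons, the best known of which are in Ptprc (CD45) in T cells.

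The sequences below are the 6 shortest microexons, which show how little of a read such an exon can fill. Capitals mark the microexon, lower case the last and first 10 bases of its neighbour exons in the spliced GENCODE M21 transcript, 5′ to 3′, with the exon's GRCm38 position (the deposited files themselves use mm9).
Hnrnpm, 8 nt, chr17:33669169-33669176, minus strand: aaagtcaaggGGATGTGCtgttgttgaa
Map4k4, 9 nt, chr1:40008331-40008339, plus strand: caagcctgcgGGAGAAGTGgacttgactg
Rnf4, 10 nt, chr5:34349550-34349559, plus strand: ctctgttgtgATTGTTGAAGaaaggagaag
Dnm2, 12 nt, chr9:21490658-21490669, plus strand: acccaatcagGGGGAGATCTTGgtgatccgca
Il17ra, 12 nt, chr6:120478164-120478175, plus strand: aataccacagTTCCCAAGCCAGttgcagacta
Supt5h, 12 nt, chr7:28330018-28330029, minus strand: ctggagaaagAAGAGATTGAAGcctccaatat

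The next exons were chosen after their values were seen, as examples of annotated skipping: many reads on a known junction join the 2 neighbour exons directly and leave the microexon out.
Cd8a, 31 nt, chr6:71375888-71375918, plus strand: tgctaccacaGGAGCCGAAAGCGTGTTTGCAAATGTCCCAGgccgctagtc
Skap1, 48 nt, chr11:96723350-96723397, plus strand: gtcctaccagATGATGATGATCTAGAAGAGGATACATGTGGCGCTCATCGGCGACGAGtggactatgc
Raly, 48 nt, chr2:154859911-154859958, plus strand: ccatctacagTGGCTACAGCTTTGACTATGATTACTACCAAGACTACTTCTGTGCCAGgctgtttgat
Creb1, 42 nt, chr1:64559727-64559768, plus strand: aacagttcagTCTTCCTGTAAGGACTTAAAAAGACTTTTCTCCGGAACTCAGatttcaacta
Abi1, 15 nt, chr2:22963214-22963228, minus strand: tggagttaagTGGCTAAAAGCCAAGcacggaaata

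The last set holds coding exons from the largest differences between KO and wild type, with the pair of adjacent Ptk2b exons in transcript order.
Osbpl9, 39 nt, chr4:109091661-109091699, minus strand: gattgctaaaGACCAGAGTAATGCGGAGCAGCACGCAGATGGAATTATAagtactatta
Fyb, 23 nt, chr15:6642557-6642579, plus strand: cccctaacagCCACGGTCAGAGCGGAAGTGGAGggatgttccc
Mthfd1, 47 nt, chr12:76293391-76293437, plus strand: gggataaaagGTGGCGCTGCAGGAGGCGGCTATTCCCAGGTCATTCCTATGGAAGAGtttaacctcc
Ptk2b, 47 nt, chr14:66174749-66174795, minus strand: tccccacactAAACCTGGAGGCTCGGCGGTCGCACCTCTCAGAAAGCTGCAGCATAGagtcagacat
Ptk2b, 51 nt, chr14:66173838-66173888, minus strand: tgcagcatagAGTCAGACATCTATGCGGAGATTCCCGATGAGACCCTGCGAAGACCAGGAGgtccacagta
The first bases after the 47-nt Ptk2b exon are the start of the 51-nt one, so the reads between them count for both.

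Junction reads numbered 4759678 and 6146421 in the wild-type libraries and 3302915 and 3515308 in the KO libraries. Hnrnpl itself stood at 56.0% of the wild-type mean CPM in KO library 1 and 25.0% in KO library 2. KO library 1 was also the single library with many reads of the Y-linked Ddx3y, 4116 against 1 to 17, and few of Xist, 222 against 57852 to 87390. Thymocyte markers summed to 12600 to 15100 CPM in the 4 libraries, all 8 of them above the low-count filter, and the 4 B cell markers to 33 to 38.5 CPM. The 4 erythroid markers summed to 287 CPM in KO library 1 against 64.4 to 80.9 in the others, and the 4 thymic epithelium markers to 36.3 CPM in KO library 2 against 17.5 to 19. The 6 neuron markers summed to 15.6 to 26.3 CPM, nearly all of it Tubb3, with Snap25 at 0 to 2 reads and Nefl at 0 to 2 reads. The 4 myeloid markers summed to 113 and 115 CPM in wild type and 133 and 141 CPM in KO. All sums here are of CPM without TMM scaling, while the Hnrnpl shares and the single-gene means use CPM with TMM scaling. On that scale Csf1r was at 8.60 CPM in wild type and 12.9 in KO, and Cd68 at 2.81 and 4.69. Itgam was at 27.3 and 33 CPM, and Lyz2 at 80.1 and 81.1. Among the thymocyte markers Cd3e stood at 149 CPM in wild type and 291 in KO, and Rag2 at 338 and 530. Rag1 was at 7610 and 6610, Cd8b1 at 1330 and 1130, and Dntt at 2130 and 1960. Cd8a was at 1920 in both groups, Cd4 at 830 and 849, and Ptcra at 51.6 and 54.2. The median log2 difference of the thymocyte markers was 0.01, and edgeR called none of them. The part of these cells, of sex and of the unequal Hnrnpl levels in the results was not tested.

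The microexons were mostly at the upper end of the length range. Their median length was 43 nt, against 124 nt for the longer exons. Only 14 were 15 nt or shorter, 257 had 16 to 27 nt, 1033 had 28 to 39 nt and 2418 had 40 to 51 nt. The shortest, in Hnrnpm, had 8 nt. At the upper limit, 306 exons of 51 nt were members and 234 of 52 nt were not. Among those just inside, Lgals9 (3064 flanking reads) and Ppp2r5a (2147) had the most reads, and just outside, Zap70 (3100) and Capza2 (2752). At the read limit, 25 members had 20 reads, such as a 19-nt exon of 1810043G02Rik and a 21-nt exon of Map3k5, and 28 exons of up to 51 nt had 19, such as Ptprs (12 nt).

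**Figure D1:**
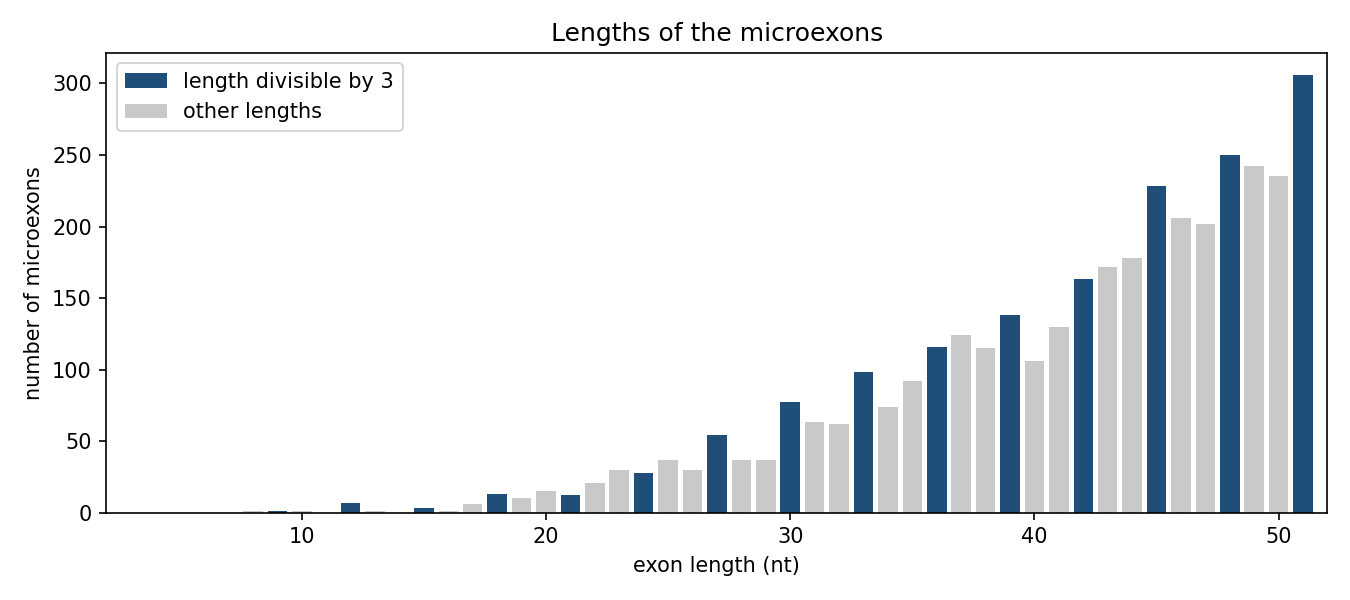
Number of microexons (vertical axis) at each exon length in nt (horizontal axis), with lengths divisible by 3 in dark bars. The counts rise toward the limit of 51 nt, where 306 exons lie, and the dark bars often stand above their neighbours.

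Lengths divisible by 3 were found for 1494 microexons, 40.1%, against 38.4% of longer exons. Matching each exon to GENCODE M21 by its length, strand, chromosome and flanking intron lengths placed 3697, or 99.3%. Of these, 3486 (94.3%) were coding throughout, 108 were partly UTR, 68 lay in a 5' UTR, 5 in a 3' UTR and 30 in transcripts with no coding sequence. The 5' UTR share was 1.84%, against 0.812% of longer exons, and 13.6% of microexons were the second exon of their transcript, against 9.73%. Another annotated transcript left the exon out for 604 microexons, 16.3%, against 10.7% of longer exons. Their bases were 47.2% G or C against 50.6%, and their introns were slightly shorter, with medians of 583 nt for the shorter and 2073 nt for the longer flanking intron against 673 and 2129 nt.

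Most genes with a microexon, 1770, had just 1, and 268 had 3 or more. Map2k5, which encodes the MAP kinase kinase MEK5, had 10. Lcp2, the gene of the T cell receptor adaptor SLP-76, had 8, with a median length of 31.5 nt. Gtf2ird1, Ktn1 and Snhg1 had 7 each. Fyb and Ptk2b, which encode the adaptor ADAP and the kinase PYK2 that act downstream of the T cell receptor, had 6 each, as did the kinase genes Map4k1 and Map4k2.

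Reads on the microexons' flanking junctions made up 6.60% and 6.61% of all known-junction reads in the wild-type libraries and 6.64% and 6.58% in the KO libraries. The 4 shares lie within 0.06 points of each other, and neither group is apart from the other. The median microexon had 145 flanking reads over the 4 libraries, against 164 for longer exons.

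The reads a microexon received differed with its length. For each exon the mean of the 2 flanking junctions was divided by the mean of the nearest known junctions of the gene outside them, so a value of 1 means as many reads as on the neighbours. The median of this ratio was 0.097 for exons of 3 to 15 nt, 0.320 for 16 to 21 nt, 0.516 for 22 to 27 nt, 0.727 for 28 to 33 nt and 0.886 for 34 to 39 nt. It reached 1.00 at 40 to 45 nt and 0.978 at 46 to 51 nt, and was 1.06 to 1.09 in every class of longer exons. In the shortest class the 4 libraries gave 0.0826, 0.101, 0.0833 and 0.0852, and in the class of 28 to 33 nt they gave 0.707, 0.741, 0.721 and 0.647. In each library the ratio rose from class to class up to 45 nt, and the read minimum leaves out short exons with still fewer reads.

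The 2 sides of a short exon were also unequal. The smaller flanking junction had a median of 0.0225 of the reads of the larger at 3 to 15 nt and 0.176 at 16 to 21 nt, against 0.455 at 46 to 51 nt. Their outer junctions had medians of 0.425, 0.552 and 0.426 in the same classes, with no such slope. One side had no read at all in 5 of the 14 shortest exons and in 12 of the 57 exons of 16 to 21 nt, 35.7% and 21.1%, but in 1.46% of those of 46 to 51 nt. The inclusion levels of exons under 34 nt given here are computed from these flanking reads, with no correction.

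**Figure D2:**
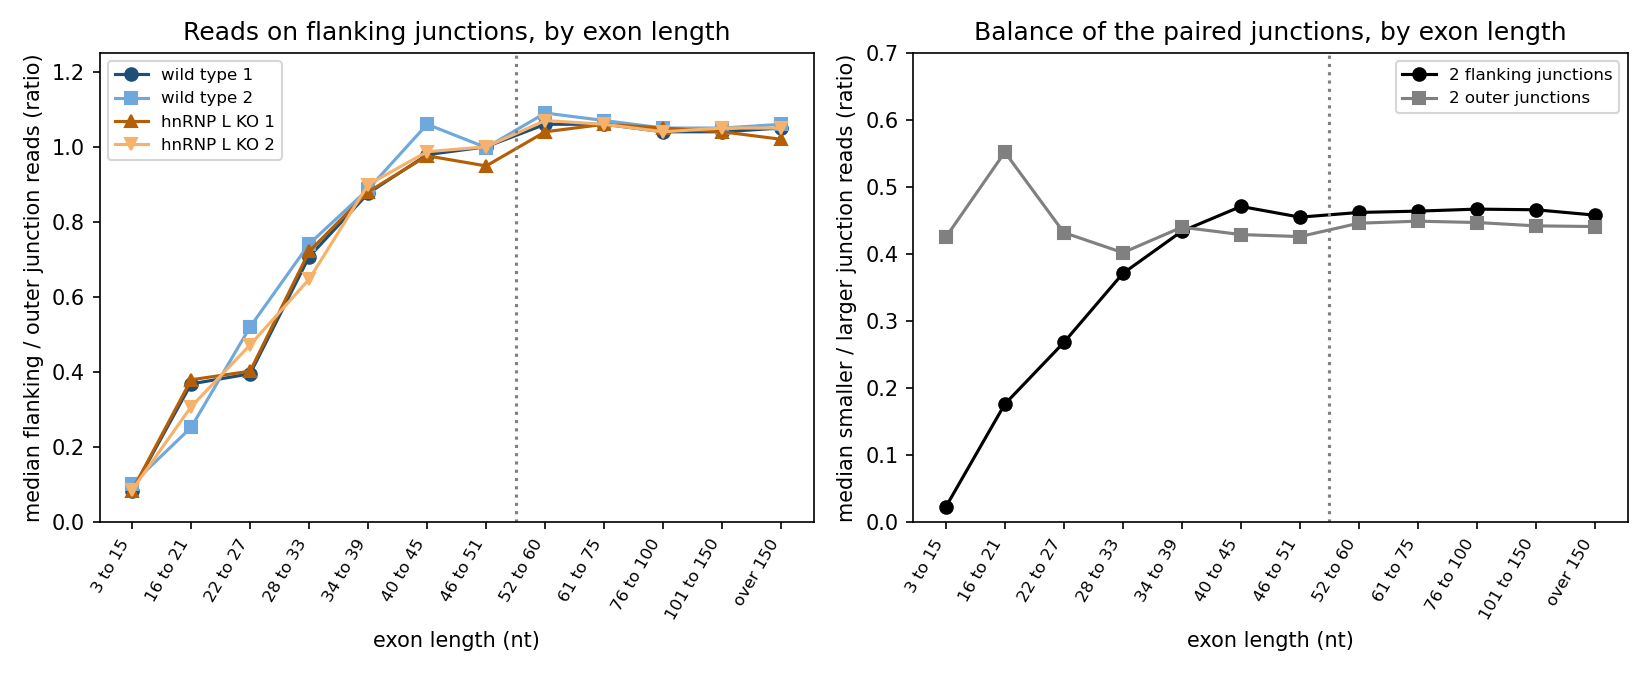
Left, median ratio of flanking to outer junction reads (vertical axis) by exon length class in nt (horizontal axis), 1 line per library. Right, median ratio of the smaller to the larger of 2 paired junctions for the flanking pair (black) and the outer pair (grey), pooled over libraries. The dotted line marks the limit of 51 nt. The flanking ratios climb from 0.097 and 0.0225 in the shortest class, while the outer pair stays between 0.402 and 0.552.

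The 6 shortest exons show this one by one, and their sequences are printed above. Map4k4 encodes a kinase of the STE20 family, and its 9-nt exon had 0 reads on the junction before it and 85 on the one after. In Rnf4, a SUMO-targeted ubiquitin ligase, the 10-nt exon had 107 reads before it and 1 after. Il17ra, an interleukin-17 receptor chain, had 7 and 361 at its 12-nt exon. In these 3 exons 1 side is nearly empty, and which side it is differs between the genes. Reads numbered 63 and 235 at the 12-nt exon of Dnm2, the vesicle-scission GTPase dynamin 2, 81 and 29 at that of Supt5h, an elongation factor of RNA polymerase II, and 1 and 22 at the 8-nt exon of Hnrnpm. Inclusion in Map4k4 came to 26.5% from both sides, 41.9% from the side with reads and 0% from the other.

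Inclusion is the mean of the flanking reads as a share of that mean plus all reads on any junction of the gene that spans the exon. Pooled over the libraries its median was 97.8% in microexons and 97.9% in longer exons. Of the microexons, 1452 (39%) were at 99% or more, 1490 at 90% to 99%, 765 (20.6%) at 10% to 90% and 15 below 10%. The share between 10% and 90% in longer exons was 20.5%. In single libraries the mean was 91.9% and 91.7% in wild type and 92.5% and 92.3% in KO, and for longer exons 92.0%, 92.1%, 92.7% and 92.7%. By this measure, which counts any spanning junction, microexons as a whole thus have nearly the same distribution as longer exons. In both the KO means lie slightly above the wild-type means. Only 60 microexons at 10% to 90% had reads on a known spanning junction. The shares of exons with such reads, and with reads that skip the exon alone, differed between microexons and longer exons, as given below. By length the median inclusion of microexons was 84.7% at 3 to 15 nt, 92.3% at 16 to 21 nt, 95.8% at 22 to 27 nt, 97.0% at 28 to 33 nt and 98.3% at 46 to 51 nt. The share between 10% and 90% was 50.0% and 42.1% in the 2 shortest classes and 17.7% at 46 to 51 nt. The flanking reads fall short in the same short classes, and their part in these levels was not tested.

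Reads that span a microexon did not all skip it alone. Spanning reads were found for 2660 microexons, 71.5%, and for 72.7% of longer exons. Reads that join exactly the outer ends of the 2 flanking introns, which is what skipping the single exon gives, were found for 798, 21.4%, against 14.1% of longer exons. Spanning reads on a junction marked as known were found for 82, 2.20%, against 0.719%. Of the 56488 spanning reads, 43.0% joined the outer ends and 32.7% lay on known junctions. Without Drosha, a gene with 10158 spanning reads at 1 exon, 52.4% joined the outer ends. The spanning reads off known junctions lay on junctions that the authors marked as putative, some of which join the outer ends. How many exons each of these spans was not counted.

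The 6 most read microexons were in Cd8b1, Cd3g (2 exons), Ccr9 and the ribosomal protein genes Rplp2 and Rpl38, and all 6 were almost always included. The 37-nt exon of Cd8b1, whose product is the CD8 beta chain, had 3630 and 4983 flanking reads in the wild-type libraries and 2569 and 2359 in the KO libraries. Its inclusion was 99.5% and 99.4% in wild type and 100% and 99.7% in KO, and 27 spanning reads in all stood against 13541 flanking reads. Cd3g encodes the gamma chain of the CD3 complex, and its 44-nt exon had inclusion of 99% and 99.4% in wild type and 99.3% and 97.2% in KO. The 24-nt exon of the same gene was at 99% and 99.3%, and at 99% in both KO libraries. It had 288 reads on its upstream side and 6214 on its downstream side.

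A 45-nt exon of Ccr9, a chemokine receptor that binds CCL25, and a 49-nt exon of the ribosomal protein gene Rplp2 had no spanning read in any library. For Rplp2 this allows spanning reads up to 0.206% and 0.281% of the mean flanking reads in the wild-type libraries and 0.703% and 0.461% in the KO libraries. These limits cover counting error alone. Rpl38, another ribosomal protein gene, had 6 spanning reads against 6776 flanking reads at its 34-nt exon.

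The microexon with most exon-skipping reads between 10% and 90% was the 31-nt exon 4 of 5 of Cd8a, at chr6:71325882-71325912 (mm9, plus strand). Cd8a encodes the CD8 alpha chain, and leaving out this exon is known to give the alpha prime form, which has a shortened cytoplasmic tail. Flanking reads numbered 1531 and 2044 in wild type and 1242 and 1118 in KO, and spanning reads 848 and 1280, then 679 and 645. Inclusion was 47.4% and 44.4% in wild type and 47.8% and 46.4% in KO, or 45.9% ± 2.15 and 47.1% ± 0.948 (SD, n = 2 each). The groups overlap, and the difference of 1.18 points had an adjusted p of 0.999 in edgeR's quasi-likelihood test. All but 1 of the 3452 spanning reads lay on the known junction that joins the neighbour exons. Since 31 is not a multiple of 3, the skip changes the reading frame of the rest of the message. Taken from the upstream junction alone inclusion was 35.7%, and from the downstream one 53.8%.

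Further exons with mostly annotated skipping were in Puf60, Skap1 and Trp53inp1. Puf60 encodes a splicing factor that binds poly(U) RNA, and its 51-nt exon was included at 40.9% and 32.1% in wild type and 40.2% and 47.4% in KO. Skap1 encodes an adaptor that links the T cell receptor to integrins, and its 48-nt exon was at 24.5% and 29.6%, then 24.1% and 30.2%. In Skap1 the 2 libraries of a group differ more than the groups do. The 38-nt exon of Trp53inp1, a p53-induced gene, lies in a transcript annotated as noncoding and was at 22.1% and 13.2% in wild type and 22.5% and 28% in KO. The 37-nt exon of Add1, the gene of the spectrin-binding protein adducin 1, had the lowest level of the group, 8.93% and 14.2% in wild type and 10.6% and 7.10% in KO. For Gnas, the gene of the stimulatory G protein alpha subunit, the 45-nt exon 3 separates the long and the short form. Its inclusion was 46% and 37.6%, then 50.6% and 44.8%, with 14 reads upstream and 927 downstream, so that the upstream side alone gave 2.23%. Of its 615 spanning reads, 407 lay on known junctions and only 193 joined its outer ends. Pooled inclusion was 43.3% as reported, 53.6% against known spanning junctions only and 70.9% against reads that join the outer ends only.

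The other exons with as many spanning reads had none of them on known junctions. All 480 spanning reads of the 36-nt exon of Nap1l4, a histone chaperone gene, joined its outer ends, and inclusion was 26.2% and 28.5% in wild type and 22.8% and 25.0% in KO. By contrast 0 of 584 in Lta4h (24 nt, leukotriene A4 hydrolase), 0 of 397 in Spna2 (18 nt, the alpha spectrin of non-erythroid cells) and 1 of 459 in Rrm1 (40 nt, the large subunit of ribonucleotide reductase) did. Their pooled inclusion of 51.8%, 17.6% and 38.4% was 100%, 100% and 99.7% when counted against reads that join the outer ends only. These levels thus describe reads that leap over a stretch of the gene, and not the skip of the microexon alone. The most extreme case was a 45-nt exon of Drosha, the nuclear microRNA processing enzyme, with 47 flanking reads and 10158 spanning reads, all on putative junctions and none joining its outer ends.

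**Figure D3:**
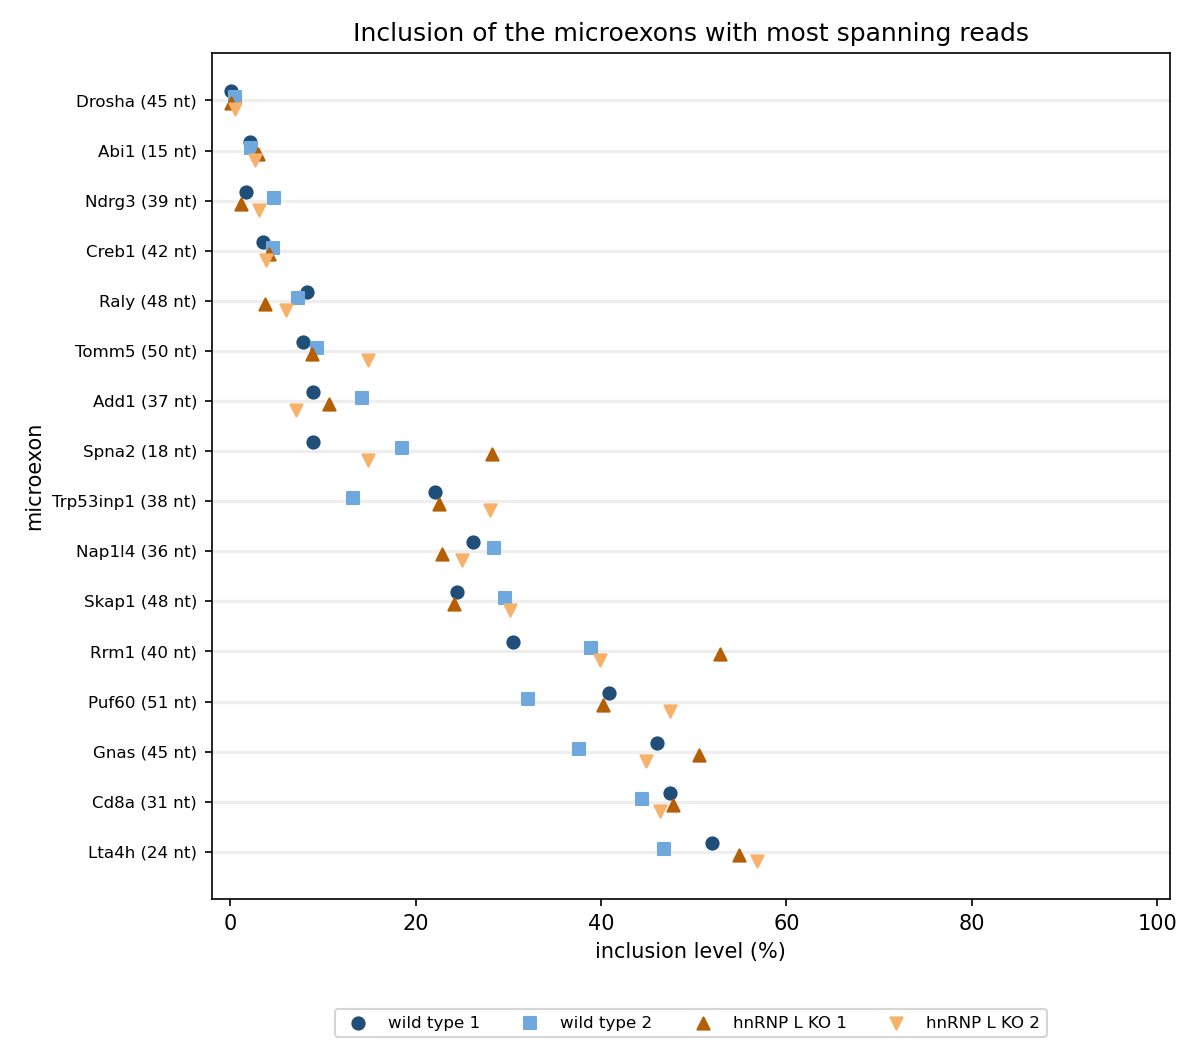
Inclusion in percent (horizontal axis) of the 10 microexons with most spanning reads at 10% to 90% inclusion and of 6 with a pooled level under 10% (vertical axis), with 1 symbol per library. Cd8a lies between 44.4% and 47.8% in all 4 libraries, while Rrm1 and Spna2 spread more widely. The levels of Drosha, Lta4h, Rrm1 and Spna2 rest on putative junctions that leap further than the exon, and do not show it skipped. The level of Gnas rests in part on spanning reads that do not join its outer ends.

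In 5 other microexons with a pooled level under 10% the spanning reads did join the neighbour exons. These 5 and Drosha were chosen after their values were seen. In Creb1, the gene of the transcription factor CREB, 2065 of 2078 spanning reads joined the neighbours of the 42-nt exon, and inclusion was 3.55% and 4.61% in wild type and 4.17% and 3.87% in KO. Raly encodes an RNA-binding protein of the hnRNP family, and its 48-nt exon was at 8.33% and 7.31% in wild type and 3.79% and 6.00% in KO. Both KO libraries lie below both wild-type ones in Raly, with a KO minus wild-type difference of -2.93 points and an adjusted p of 0.999 by edgeR. The 15-nt exon of Abi1, a subunit of the actin-regulating WAVE complex, was at 2.09% and 2.20%, then 2.99% and 2.67%. It had 44 reads before it and 0 after it. Ndrg3 (39 nt) had a pooled level of 3.02%, and Tomm5 (50 nt), a subunit of the mitochondrial import pore, one of 9.95%.

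Frame-keeping lengths were more common among microexons with reads on an annotated skip. Among fully coding microexons under 90% with reads on a known spanning junction, 42 of 54, or 77.8%, had a length divisible by 3. Among all fully coding microexons at 99% or more, only 1 of which had such reads, it was 511 of 1332, or 38.4%. These sets thus differ in the required known spanning reads as well as in inclusion. The same shares for longer exons, chosen in the same unlike ways, were 70.0% (240 of 343) and 38.7%, which differ in the same direction. When any spanning read counted, 317 of 735 coding microexons under 90% were divisible by 3, or 43.1%. Of all coding microexons that an annotated transcript leaves out, whatever their reads, 249 of 541 were (46%), against 1150 of 2945 of those that none leaves out (39%). Cd8a is one of the 12 exceptions in the first count.

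The genes known for microexons in neurons were compared by counts. Of 77 such genes in the tables, 20 had a microexon here, 25 in all, with a median inclusion of 84.6%. That is below the median of 97.8% over all microexons, and 14 of the 25 (56.0%) were between 10% and 90%, against 20.6% of all microexons. Inclusion also differed with exon length, and the part of length in this difference was not tested. In Mbnl1, the gene of the splicing factor muscleblind 1, the 36-nt exon was included at 83.8% and 76.9% in wild type and 78.4% and 74.2% in KO, with 1461 reads before it and 126 after it. Picalm, a clathrin adaptor, was at 94.8% and 92.8%, then 97.4% and 94.8% (42 nt), and Clta, a clathrin light chain, had no spanning read (38 nt).

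T cell receptor signalling and surface genes held 80 microexons in 39 of 83 genes, with a median of 96.6% and 25 between 10% and 90%. Actin, adhesion and endocytosis genes held 61 in 32 of 76 genes with a median of 94.8%, and among them the 44-nt exon of Lsp1, a leukocyte actin-binding protein, was at 99.3% to 99.8% in all libraries. Chromatin, transcription and RNA processing genes held 62 in 33 of 58 genes with a median of 94.6%. Examples of these were the 49-nt exon of Celf2 (99.1% to 99.6%), the 41-nt exon of the DNA methyltransferase gene Dnmt1 (96.8% to 98.4%) and the 34-nt exon of the splicing repressor gene Ptbp1 (90.5% to 96.8%).

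Lcp2 shows how members can share their reads. Its 8 microexons were all tested, and 5 of them had 26 spanning reads in wild-type library 2 and 14 or 15 in wild-type library 1. Their pooled inclusion ranged from 52.9% for the 47-nt exon to 99.6% for the 50-nt exon, while the flanking reads ranged from 0 and 46 on the 2 sides of the 13-nt exon to 463 and 2498 for the 50-nt one. The differences between KO and wild type in Lcp2 were -6.07 to 5.86 points, with unadjusted p from 0.474 to 0.902 in edgeR.

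The proteins that control microexons were read in the gene tables. SRRM4, which drives neuronal microexons, had 3 and 4 reads of Srrm4 in wild type and 4 and 2 in KO, and its relative Srrm3 had 0 and 1, then 2 and 4. Both are at the edge of detection in all 4 libraries. Ptbp1, which represses many neuronal exons, stood at 285 CPM in wild type and 310 CPM in KO, a log2 difference of 0.12 ± 0.15 (SE). Of 40 listed regulators 30 were tested and 0 were called by edgeR, which called 0.00728% of all genes, or by DESeq2, which called 0.853%. At an unadjusted p under 0.05, 3 of the 30 passed in edgeR, where 9.90% of all genes did. These were Srrm1 (0.43 ± 0.14 higher on the log2 scale), U2af2 (-0.37 ± 0.12) and Hnrnpl itself (-1.30 ± 0.42, adjusted p = 0.486). Without KO library 1, Hnrnpl was called.

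No microexon passed the adjusted threshold between KO and wild type. In the exon test, 979 microexons had enough flanking and spanning reads, among 24619 exons of any length, and the other 2743 were not tested. Of the 979, 0 were called by edgeR's quasi-likelihood test at an adjusted p under 0.05, where 0.00812% of all tested exons were called. The smallest adjusted p of a microexon was 0.999. At an unadjusted p under 0.05 there were 46, or 4.70%, against 4.25% of all tested exons, with 28 higher in KO and 18 lower against 2.71% and 1.55% of all exons. DESeq2 called 0, with 16 at that unadjusted limit, and limma-voom called 0, with 56, against 1.52% and 5.11% of all exons. The split at that limit was 8 higher and 8 lower in DESeq2 and 30 and 26 in limma-voom. Over all 24619 exons it was 216 and 158 in DESeq2 and 699 and 559 in limma-voom. With either KO library left out, which leaves a single KO library, more microexons were lower than higher, but not so over all exons. In each of the 4 gene lists edgeR called 0. At an unadjusted p under 0.05 there were 1 of 13 tested exons in the neuronal list (Huwe1), 1 of 52 in the T cell list (an exon of Skap1 other than the one above), 5 of 40 in the actin and endocytosis list (1 in Ap3d1, 2 in Ktn1 and 2 in Ptk2b) and 3 of 43 in the chromatin and RNA list (Ep400, Hdac7 and Srrm2).

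The sizes of the differences were close to those over all tested exons. The levels of the KO and the wild-type libraries did not overlap for 332 microexons, 33.9%, against 32.6% of all tested exons. KO was higher in 202 of them and lower in 130, against 19.4% and 13.3% of all tested exons. Counting every tested microexon, 542 of 979 were higher and 435 lower in KO, against 13745 and 10862 of all 24619 tested exons. The median difference was 0.551 points, against 0.524 points over all exons. A difference of over 20 points was seen for 37 microexons, 3.78%, against 3.38%. By length, 1 of 73 tested exons of 3 to 27 nt, 14 of 282 of 28 to 39 nt and 31 of 624 of 40 to 51 nt had an unadjusted p under 0.05. The shares for the last 2 classes, 4.96% and 4.97%, were close to those of longer exons.

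**Figure D4:**
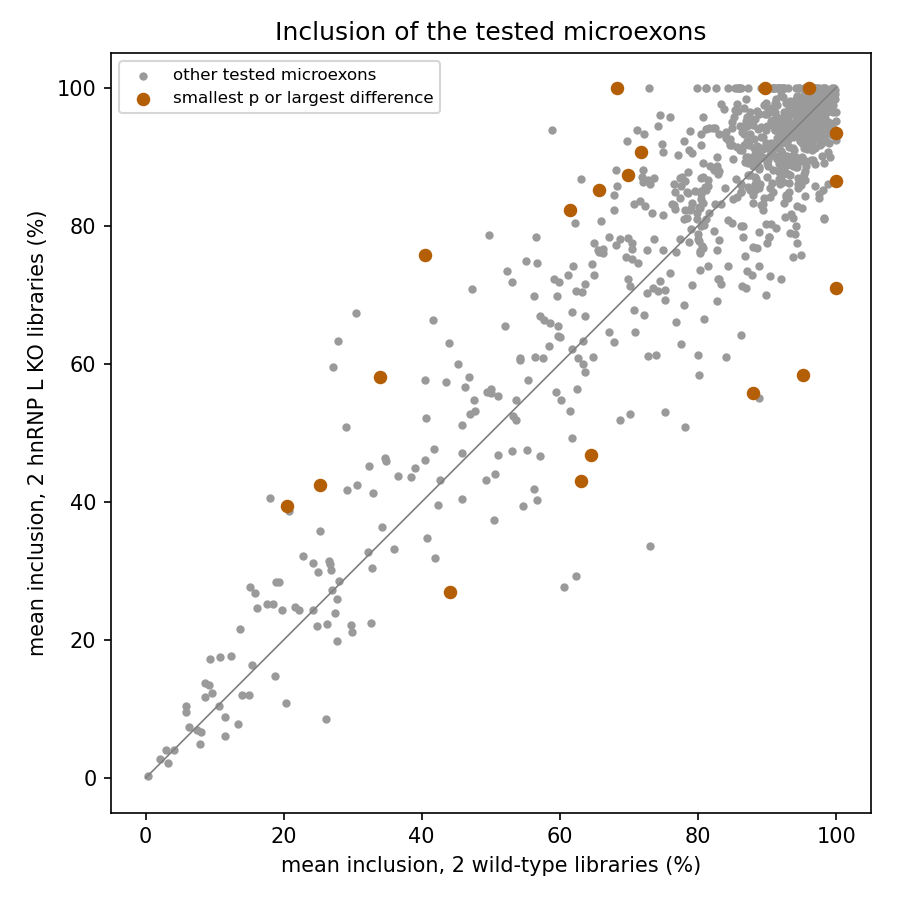
Mean inclusion in percent in the 2 hnRNP L KO libraries (vertical axis) against the 2 wild-type libraries (horizontal axis) for the 979 tested microexons, with a line at equal levels. The coloured points are the 19 with the smallest p or the largest difference, and they lie at the rim of a cloud that surrounds the line.

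Of the 10 exons with the smallest p, 7 had 5 to 11 spanning reads in all, and Huwe1, Ktn1 and Ptk2b had 29, 39 and 47. Entry into the test needed 5 or more spanning reads summed over the libraries. Atg3, Mpv17 and 5730455O13Rik met this through KO reads alone, and Zfp207, Fig4 and Ep400 through wild-type reads alone. Their level of 100% in the other group is thus tied to entry into the test and is no separate support. The 35-nt exon of Atg3, the E2-like enzyme that lipidates LC3 in autophagy, had 95 and 217 flanking reads in wild type and 79 and 95 in KO, with 0 and 0, then 5 and 1 spanning reads. Inclusion was 100% in both wild-type libraries and 88.8% and 97.9% in KO, a KO minus wild-type difference of -6.65 points, with an unadjusted p of 0.00581 and an adjusted p of 0.999. Mccc1, a subunit of methylcrotonyl-CoA carboxylase, had inclusion of 90.5% and 100% in wild type and 47.4% and 69.2% in KO at its 50-nt exon. The groups do not overlap in these 2 genes, and the Mccc1 levels in KO rest on 5 and 2 spanning reads.

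In 2 of the 10 a single KO library made the difference. The 48-nt exon of the ubiquitin ligase gene Huwe1 was at 91.3% and 84.6% in wild type and 24.1% and 87.5% in KO, and the groups overlap. Without KO library 1 its difference of -32.1 points was -0.46. None of the 29 spanning reads joined the outer ends of the Huwe1 exon. Mpv17, a gene of a mitochondrial inner membrane protein, was at 100% in 3 libraries and at 73.0% in KO library 2 (33 nt). The remaining exon lower in KO, of 46 nt in 5730455O13Rik, was at 100% in both wild-type libraries and at 63.0% and 78.9% in KO, from 7 spanning reads. None of these 7 joined its outer ends.

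Higher inclusion in KO was found for the other 5. Zfp207, the gene of the spindle-associated zinc finger protein BuGZ, was at 97.4% and 94.8% in wild type and 100% and 100% in KO (48 nt), with 3 and 8, then 0 and 0 spanning reads. The 46-nt exon of Fig4, a phosphoinositide phosphatase gene, was at 89.8% and 89.6%, then at 100% in both KO libraries. The 50-nt exon of Ep400, a chromatin remodelling ATPase gene, was at 52% and 84.6%, then also at 100%, a difference of 31.7 points that was 15.4 without wild-type library 1. None of the 11 spanning reads of Fig4 or the 11 of Ep400 joined the outer ends of these exons. Ktn1 encodes kinectin, a membrane protein that binds the motor kinesin, and its 38-nt exon was at 31.6% and 49.2%, then 82.6% and 68.9%. It had 6 reads upstream and 104 downstream, and none of its 39 spanning reads joined its outer ends.

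The pair of adjacent Ptk2b exons differed in the same direction, and they share reads. PYK2, the product of Ptk2b, is a kinase activated by calcium and by the T cell receptor. The 51-nt exon had flanking reads of 97 and 99 in wild type and 102 and 57 in KO, and spanning reads of 27 and 13, then 2 and 5. Inclusion was 64.2% and 79.2% in wild type and 96.2% and 85.1% in KO, or 71.7% ± 10.6 and 90.7% ± 7.89 (SD, n = 2 each). The 47-nt exon was at 52.9% and 69.8%, then 90.5% and 73.9%. Both exons were selected as large differences between groups that do not overlap, so their separation is no separate support. By edgeR the unadjusted p was 0.0132 for the 51-nt and 0.0645 for the 47-nt exon, and the adjusted p was 0.999 for each. In both exons the 2 KO libraries are above the 2 wild-type libraries. The mean differences were 18.9 points in the 51-nt exon and 20.8 points in the 47-nt exon. Without wild-type library 1 these were 11.5 and 12.4 points, and without KO library 1 the second was 12.6. None of the 47 and 49 spanning reads joined the outer ends, and nearly the same reads spanned both exons. A 36-nt exon further on in Ptk2b was at 66.3% and 83.6%, then 94.9% and 86.3%, with an unadjusted p of 0.0434 by edgeR and an adjusted p of 0.999.

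Differences with closer replicates were seen in Mthfd1, Osbpl9, Fyb and Sipa1. Mthfd1 encodes an enzyme of folate metabolism, and its 47-nt exon had 26 and 29 spanning reads in wild type and 9 and 21 in KO, none of which joined its outer ends. Inclusion there was 32.5% and 35.6% in wild type and 60% and 56.2% in KO, or 34% ± 2.18 and 58.1% ± 2.65 (SD, n = 2 each), a difference of 24.1 points. Osbpl9, a lipid-binding protein gene, was at 60.8% and 68.3% in wild type and 46.2% and 47.4% in KO for its 39-nt exon. The KO minus wild-type difference was -17.8 points, and 115 of its 119 spanning reads lay on the known junction. Counted on the upstream side only it was -6.64 points, and on the downstream side -20.9. Fyb, the gene of the adaptor ADAP, was at 25.7% and 24.6%, then 46.5% and 38.5% for its 23-nt exon, and none of 114 spanning reads joined its outer ends. The groups do not overlap in any of the 4 genes, and the adjusted p by edgeR was 0.999 for each.

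Sipa1, which encodes a GTPase-activating protein of RAP1, holds its 31-nt microexon in the 5' UTR as exon 2 of 17. It was at 20% and 21.1% in wild type and 43.2% and 35.5% in KO, with 112 of its 118 spanning reads on known junctions. The exon had 6 reads upstream and 88 downstream, and the difference of 18.8 points was 5.87 from the upstream junction alone. Itpr1, an IP3 receptor gene, was at 75% and 56.2% in wild type and 84.9% and 85.4% in KO (45 nt), a difference of 19.6 points that was 10.1 without wild-type library 2. Only 3 of the 28 spanning reads of Itpr1 joined the outer ends. Ppp3cb, a catalytic subunit gene of calcineurin, was at 71.8% and 67.9%, then 95.9% and 78.8% (30 nt), a difference of 17.5 points that was 8.93 without KO library 1. Lower levels in KO were found for Rab3gap2 (36 nt, -17.2 points, and -7.35 from the downstream junction alone) and for C80913 (35 nt), at 68.3% and 57.8% in wild type and 41.3% and 44.7% in KO. None of the 86 spanning reads of Rab3gap2 joined the outer ends, while 76 of 81 did in C80913. The 47-nt and 51-nt Ptk2b exons and the exons from Mthfd1 to C80913 were selected as the largest differences between groups that do not overlap. Their sizes thus describe the upper end of the spread, and the lack of overlap is no separate support.

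**Figure D5:**
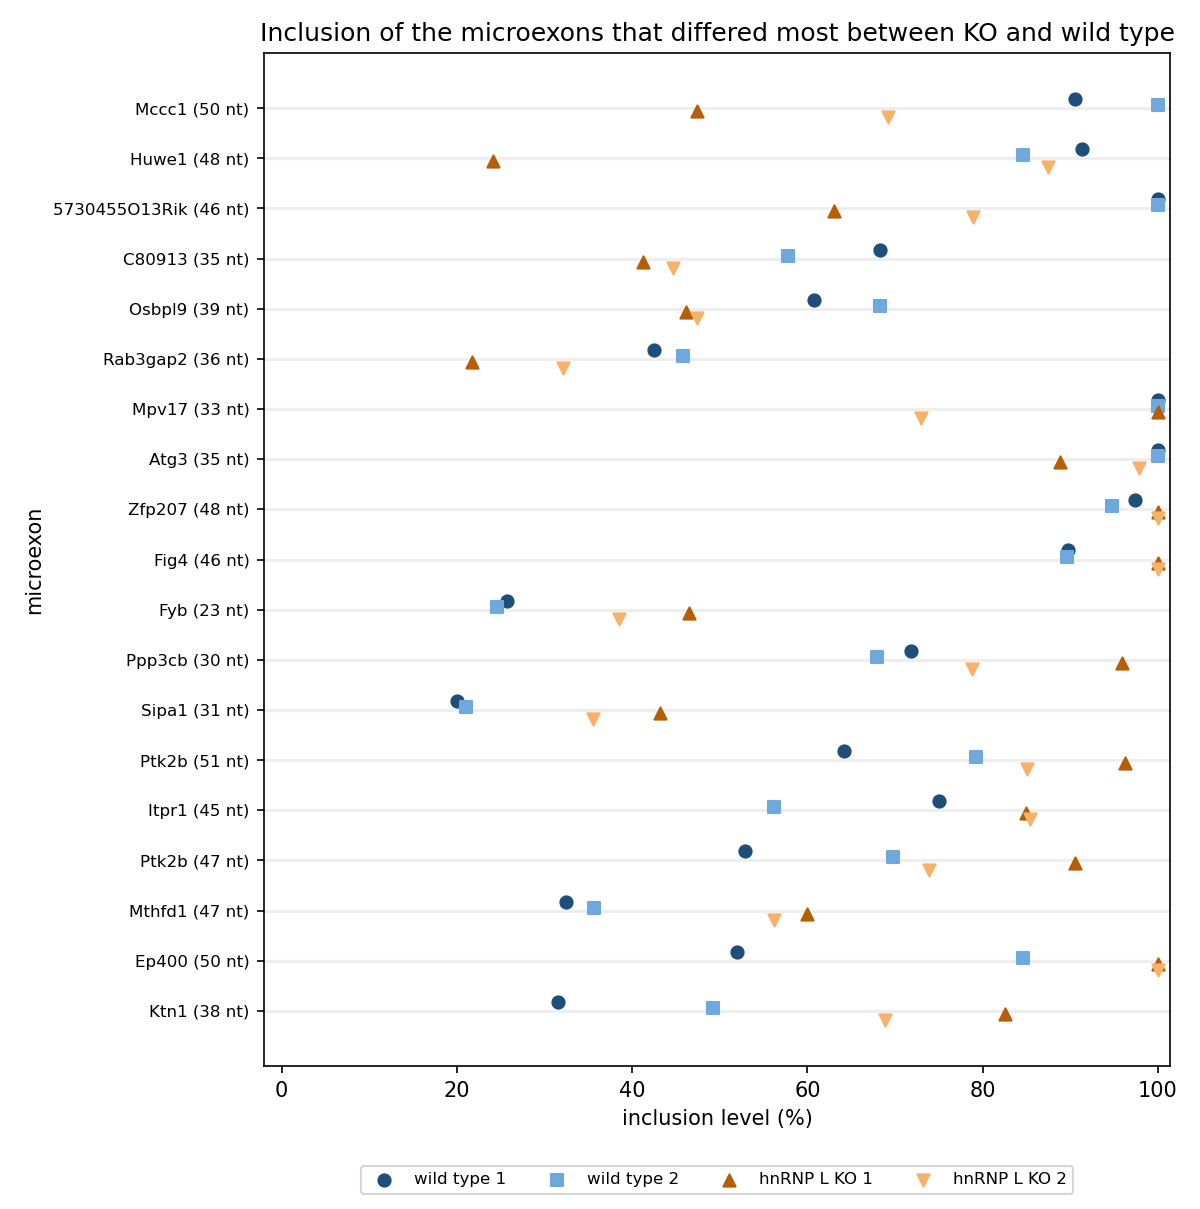
Inclusion in percent (horizontal axis) in each library for the 19 microexons with the smallest p or the largest difference (vertical axis), wild type in blue and hnRNP L KO in orange. In Mthfd1 the wild-type libraries lie at 32.5% and 35.6% and the KO libraries at 60% and 56.2%, while in Huwe1 a single KO library, at 24.1%, stands apart. In Ep400, Fig4, Fyb, Huwe1, Ktn1, Mthfd1, Ptk2b, Rab3gap2 and 5730455O13Rik no spanning read joined the outer ends. Their levels do not show the microexon skipped alone.

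Counting only known spanning junctions gave a smaller set. Of the 82 microexons with such reads, 55 (67.1%) had a length divisible by 3, and their median inclusion was 48.2%. In the test, 69 microexons entered among 489 exons, and edgeR called 0 of them, against 0.409% of all 489. At an unadjusted p under 0.05 there were 8 (11.6%), against 14.3% of the 489. The smallest adjusted p was 0.196, for the 48-nt exon of Zfp207. KO was higher in 41 and lower in 28 of the 69, with a median difference of 2.01 points. The same split over the 489 exons was not counted.

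The 8 exons were in Zfp207, Eya3, Exosc1, Sipa1, Snrk, Trp53inp1 and, overlapping each other, the 27-nt and 31-nt forms of 1 exon in Sept2. Snrk encodes a kinase related to AMPK, and its 50-nt exon in the 5' UTR was at 66.1% and 70.0% in wild type and 90.5% and 93.5% in KO, from 18 spanning reads. Exosc1, a subunit gene of the RNA exosome, was at 100% in wild type and 81.4% and 96.8% in KO (34 nt), from 5 spanning reads. The septin gene Sept2 was at 100% and 96.4%, then 73.3% and 88.9% for its 31-nt form, from 7 spanning reads. Eya3 (44 nt) was at 93.2% in KO library 2, which held all 5 of its spanning reads. Exosc1 and Eya3 entered through KO reads alone and Zfp207, which differed by 3.58 points, through wild-type reads alone. By contrast Sipa1 had 112 and Trp53inp1 1825 known spanning reads. In Trp53inp1 wild-type library 1 was at 22.1% and KO library 1 at 22.7%. Its unadjusted p by edgeR was 0.0405 here and 0.222 in the test with any spanning junction.

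Microexons with no spanning read could be examined through the use of their junctions within the gene. Among 95139 junctions tested with edgeR's diffSpliceDGE, 6517 flanked a microexon, and 0 of these were called, against 0.00420% of all. At an unadjusted p under 0.05 there were 169, with 89 more used in KO and 80 less, where 2.55% of all junctions passed. With either KO library left out, which leaves a single KO library, more of them were less used than more used in KO. The split over all junctions was not counted. limma-voom called 0, against 0.00105% of all, with 188 at the unadjusted limit, against 2.82%. The smallest p belonged to a junction of 9430015G10Rik with 0 and 0 reads in wild type and 7 and 7 in KO. The second was in Mettl3, the catalytic subunit gene of the RNA m6A methyltransferase, with 9 and 9 reads in wild type and 0 and 0 in KO. Each reached the minimum of 10 reads through 1 group alone, so its absence in the other group is tied to entry into the test. Both had an adjusted p of 1 in edgeR. Without wild-type library 2, 1 flanking junction was called, in the splicing factor gene Srsf3.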

How the data were processed

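RNA of total thymocytes from 2 wild-type and 2 hnRNP L KO mice was sequenced, 1 library per mouse. The authors deposited, per library, a table of read counts per exon-exon junction marked known or putative (mm9, per the submitters' processing notes) and a table of read counts and RPKM values per transcript. The RPKM values deposited by the authors, scaled by length and mapped reads, were not tested. Per the file headers, alignments entered the transcript counts from mapping quality 10 upward. How junction reads were aligned and counted, and with what overhang, is not given in the sources used here. No interval covers more than counting error.

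Exons were taken from known junctions. Inclusion is the mean of the 2 flanking junctions over that mean plus the spanning reads. Tests used edgeR 4.0.16 in R 4.3.3, with quasi-likelihood fits over all exons with 10 or more reads per library and, summed, 5 or more each of flanking and spanning reads, diffSpliceDGE for junctions with at least 10 reads, and TMM with filterByExpr for genes, with the most read transcript per symbol. Benjamini-Hochberg adjustment ran over each whole table, with a threshold of 0.05. DESeq2 1.42.0, limma 3.58.1, other filters, other junction choices and leaving out each library were alternatives. The scripts were tested on simulated data.

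The exons named are the 10 with the smallest p, the 10 with the largest difference among those with 20 or more reads per library and no overlap of the groups, the 6 shortest (ties by most reads), the 6 most read, the 10 with most spanning reads at 10% to 90% inclusion in wild type, up to 3 per gene list and those at the limits. The members and lists were chosen with earlier results of these data known. Equal mouse numbers are not stated to mark pairs: same-numbered libraries deviated together with r = -0.000749 in inclusion over 24619 exons and r = 0.30 over 12490 genes. Sequences come from GENCODE M21 (GRCm38), and no mm9 genome was used, so intron sequence was not analysed here.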

Additional observations from a re-analysis of the deposited data

How the results depend on the processing

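The exon test called 0 microexons under every alternative run. At an unadjusted p under 0.05 there were 46 as reported, 16 in DESeq2 and 56 in limma-voom, with the shares over all exons given above. With no filter on low counts there were 29 of 2660, against 696 of 64081 exons. With the junction joining the outer ends only there were 13 of 245, against 157 of 2829. With known spanning junctions only there were 8 of 69, against 70 of 489, and for exons of 3 to 27 nt 1 of 73. The split of 28 higher and 18 lower was 8 and 8 in DESeq2, against 216 and 158 over all exons. With no filter it was 13 and 16, against 340 and 356. With the replicate block, which treats equal mouse numbers as pairs, 0 microexons, 0 flanking junctions and 0 regulator genes were called. Over all genes 121 were called in place of 1. At an unadjusted p under 0.05 the block gave 29 microexons, against 690 of 24619 exons. It gave 157 of 6517 flanking junctions, against 2398 of 95139. The numbers are not shown to pair the mice. Flanking junctions called ranged from 0 to 1 and regulator genes from 0 to 1 with 1 library left out, the single calls being Srsf3 without wild-type replicate 2 and Hnrnpl without KO replicate 1. DESeq2 called 108 genes, and no filter on low counts gave 62, none of them a regulator. Median inclusion was 97.8% as reported, 100% with known spanning junctions only and 100% with the junction that joins the outer ends only, since most microexons have no such read. It was 97.4% from the lower-coordinate junction, 97.6% from the higher one, 98.2% with at least 50 flanking reads, 98.4% from the junction with more reads (added after seeing the data) and 97.9% to 98.1% with 1 library left out. The median ratio of flanking to outer reads was 0.917 over all microexons, 0.973 with at least 50 flanking reads and 0.908 to 0.918 with 1 library left out. Of the 19 exons named from the test, none reversed where a value could be had: 71 values with 1 library left out (5 more gave none, since the exon no longer passed the filter) and 53 with 5 other choices of junction (42 gave none). Among these, 11 values of 8 exons and 8 values of 7 exons moved by over 1.5 times. Beside those in the report, Fig4 (10.3 points) was 6.36 from its downstream junction, Ptk2b (51 nt) 32.9, C80913 -30.6 and Ppp3cb 27.8 from the upstream one, Mpv17 (-13.5) was -27 without KO replicate 1, Huwe1 -63.8 and Atg3 -11.2 without KO replicate 2, and Ep400 48 without wild-type replicate 2. Of 132 alternatives of 22 pooled levels 80 stayed within the spread between libraries, and the cause of the others was not tested. Depth limits the test, since 2743 of the 3722 microexons had too few flanking or spanning reads to enter it.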
